A study of Saccharomyces cerevisiae with 15 samples.

Results

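The genes described here encode the proteins of the small, 40S subunit of the cytosolic ribosome of the yeast Saccharomyces cerevisiae. They were all gene rows of the count table whose standard name in the R64 annotation is RPS followed by digits and an optional A or B, together with ASC1. This gave 57 of the 7127 rows, 48 of them in 24 pairs of an A and a B copy and 9 without a second copy. The libraries were made from polyadenylated RNA of W303 cells that all carried ZPR1-AID, an auxin-inducible degron on Zpr1, a chaperone of translation elongation factor eEF1A. The degron marks the tagged protein for destruction when the auxin derivative 5-Ph-IAA is added. There were 3 libraries in each of 5 groups: cells sampled untreated at 0 h, cells after 0.5 h, 1.5 h and 3 h of 5-Ph-IAA, and cells after 3 h of DMSO, the solvent. Setting the depleted cells against the solvent control of equal age asks what Zpr1 depletion changes beyond solvent and time. No strain lacking the degron received 5-Ph-IAA, so compound and depletion cannot be told apart. DMSO was sampled only at 3 h, so at 0.5 h and 1.5 h solvent, time in culture and depletion cannot be told apart. Since the degron acts on the protein, the ZPR1 transcript does not check the labels.

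Each small subunit holds a single ribosomal RNA and a set of proteins, most of which yeast encodes in duplicate from an ancient genome doubling. Ribosomal protein genes are among the most highly transcribed genes in growing yeast. The factors Rap1, Fhl1 and Ifh1 act at their promoters, and nutrients and stress act on them through the TOR and protein kinase A pathways. Of the 57 genes, 37 have an intron, which is unusual in yeast, and 20 have none. Their coding lengths run from 171 to 960 bases, and they lie on 14 chromosomes. RPS22B and ASC1, 2 members in all, hold a small nucleolar RNA gene in an intron on the same strand, so some of their counts could come from SNR44 and SNR24.

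The copies of a pair are close in sequence, which limits how well short reads can be assigned to one or the other. In 9 pairs, RPS4, RPS6, RPS16, RPS18, RPS23, RPS24 and RPS30 among them, A and B encode the same protein, but in 0 pairs are the coding sequences identical. Coding identity is at least 95% in 9 pairs. RPS6A and RPS6B differ at 6 coding bases, and 72.05% of their stretches of 50 bases are shared. The shared part is 46.81% for RPS4, 38.16% for RPS24 and 17.48% for RPS30. RPS9A and RPS9B differ at 54 bases and share 4.95%. How the authors' counting treated reads that match both copies is not given in the sources used here, so the split between copies of RPS4, RPS6 and RPS24 is uncertain. Coding bases 301 to 390 of RPS6 (RPS6A at chrXVI:377612-377701, minus strand, and RPS6B at chrII:592033-592122, minus strand) and of RPS9 (RPS9A at chrXVI:405751-405840, plus strand, and RPS9B at chrII:605221-605310, plus strand), read from the R64 reference genome, show the contrast; the W303 strain may differ from the reference. Capitals mark the bases that differ between the copies, 1 in this stretch of RPS6 and 6 in that of RPS9.
RPS6A: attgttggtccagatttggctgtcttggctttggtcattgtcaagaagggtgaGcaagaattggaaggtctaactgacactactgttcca
RPS6B: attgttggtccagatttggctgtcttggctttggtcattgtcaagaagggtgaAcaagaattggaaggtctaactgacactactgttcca
RPS9A: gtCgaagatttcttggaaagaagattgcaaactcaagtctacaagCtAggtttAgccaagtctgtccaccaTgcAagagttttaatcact
RPS9B: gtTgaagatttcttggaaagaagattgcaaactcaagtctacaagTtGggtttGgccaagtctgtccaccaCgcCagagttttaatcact

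The libraries held 2530145 to 21282576 gene counts. The lowest total was that of 5-Ph-IAA 3 h library 2, in which mitochondrially encoded genes also took 4.62% of counts, against at most 0.7866% in any other library. 5-Ph-IAA 3 h libraries 1 and 2 had a Spearman correlation across genes of 0.975 with each other. Library 1 had 0.974 with DMSO library 1, and library 2 had at most 0.956 with a DMSO library. 5-Ph-IAA 3 h library 3 had 0.984 with DMSO library 3 and 0.969 and 0.954 with its own replicates. Whether this library goes with its label cannot be told from the files, and 5-Ph-IAA results at 3 h are therefore also given without library 2 or 3 where that changed the call of a gene or ratio followed through the alternatives. All 57 genes passed the filter on low counts, and the lowest count of any of them in any library was 457, so counting error was small beside the spread between libraries. Nothing in the labels says that replicates were separate cultures, so p-values measure the spread between these libraries, which may be technical. Counts are shares of a library: total RNA per cell was not measured, and fewer cells of a kind and less RNA per cell cannot be told apart.

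The 57 genes together took a smaller share of all gene counts at 3 h, with 5-Ph-IAA or DMSO, than in untreated cells. Their share was 12.21%, 12.79% and 12.78% in the untreated libraries, a mean of 12.59% ± 0.332 (SD, n = 3). It averaged 12.25% ± 0.292 after 0.5 h of 5-Ph-IAA and 11.88% ± 0.0416 after 1.5 h (SD, n = 3 each). After 3 h it was 9.792%, 9.007% and 9.923% in 5-Ph-IAA libraries, a mean of 9.574% ± 0.495, against 11.13%, 10.45% and 10.13% in DMSO libraries, a mean of 10.57% ± 0.511 (SD, n = 3 each). All 6 libraries at 3 h lay below all 9 others. As shares of total counts, the 5-Ph-IAA libraries at 3 h lay below those of DMSO without overlap. The tests below use TMM library sizes instead. These were 1.037, 1.02 and 1.076 times the total counts in 5-Ph-IAA libraries at 3 h and 1.051, 1.166 and 1.065 times in DMSO libraries. Divided by these values the shares of the groups overlap, so the gap depends on the scaling. Leaving mitochondrial genes out of the total moved library 2 of 5-Ph-IAA at 3 h to 9.443%. The 81 genes of the large subunit had shares of 14.87%, 14.47%, 13.81% and 11.2% at 0 h, 0.5 h, 1.5 h and 3 h of 5-Ph-IAA and 12.58% in DMSO. No test was made of these sums.

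**Figure D1:**
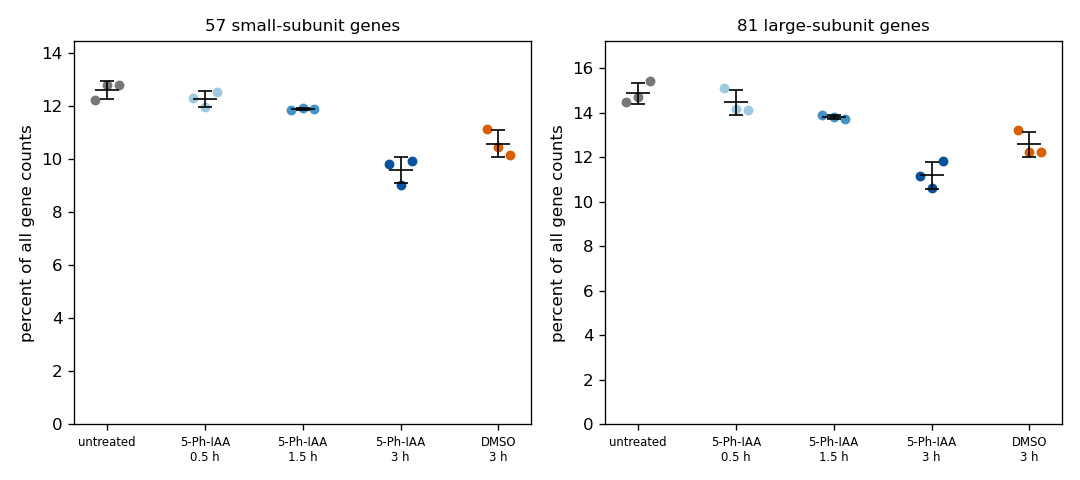
Percent of all gene counts taken by the 57 small-subunit genes (left) and the 81 large-subunit genes (right), 1 point per library, with mean and SD of 3 libraries. The 3 libraries of 5-Ph-IAA at 3 h hold 9.007% to 9.923% in small-subunit genes, below the 10.13% to 11.13% of the DMSO libraries. These are shares of total counts, and with TMM library sizes the groups overlap.

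Per length the genes were near the top of the transcriptome, although they spanned a 24.9-fold range among themselves. Levels here are counts per 1000000 library counts (CPM, with TMM library sizes) divided by coding length in kb and averaged over the 15 libraries. Coding length leaves out untranslated ends, which weighs most in short genes, so places depend on this division. RPS21A, with 264 coding bases and 2141 CPM, stood at place 19, above RPS1B, with 768 coding bases and 3695 CPM, at place 51. Of the 57, 43 were among the 100 highest of 5701 genes and 53 among the 200 highest. RPS31, which encodes ubiquitin fused to a small-subunit protein, was the highest at 15020 CPM per kb and stood at place 7 of all genes. RPS12 followed at 11090, RPS20 at 9235, RPS17B at 8877 and RPS23B at 8657 CPM per kb. The lowest were copies whose partner was higher: RPS22B at 1134, RPS9A at 918.1, RPS14B at 736.2 and RPS27A at 602.2 CPM per kb. At each of the 56 steps between neighbours in this order, the ranges of the neighbours over the 15 libraries overlapped. These ranges pool the 5 groups and so include the changes between groups. The order within a group may be clearer than they show. The ubiquitin part of RPS31 resembles that of RPL40A, RPL40B and UBI4, so reads from it may also be shared.

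Most pairs had the same major copy in every library, A in some pairs and B in others. The A copy had more counts in all 15 libraries in 11 pairs, the B copy in 9 pairs, and the order varied in 4 pairs, RPS16, RPS23 and RPS26 among them. The most uneven pair was RPS14, whose protein lies on the platform near the messenger RNA exit, with 6.41 times as many counts for RPS14A as for RPS14B (geometric mean over 15 libraries). Background knowledge has it that Rps14 protein limits its own supply by blocking splicing of the RPS14B transcript. RPS22A exceeded RPS22B 4.35-fold and RPS25A exceeded RPS25B 3.16-fold. In the other direction, RPS27B exceeded RPS27A 4.72-fold, RPS9B exceeded RPS9A 4.62-fold and RPS17B exceeded RPS17A 1.75-fold. These ratios compare copies of equal or nearly equal coding length.

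Copies that encode the same protein were often unequally expressed. Among the 9 pairs with identical proteins, the A copy was higher in all 15 libraries for RPS24 (1.99-fold), RPS30 (1.98-fold), RPS6 (1.73-fold) and RPS4 (1.7-fold). The B copy was higher in all 15 for RPS18 (1.49-fold). RPS23 was 1.13-fold higher for the B copy, with 1 library the other way, and RPS16 had a mean A over B ratio of 1.06 with libraries on both sides of equality. In the pairs RPS4, RPS6 and RPS24, where long stretches are shared, part of the counts may have been assigned to either copy or dropped.

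**Figure D2:**
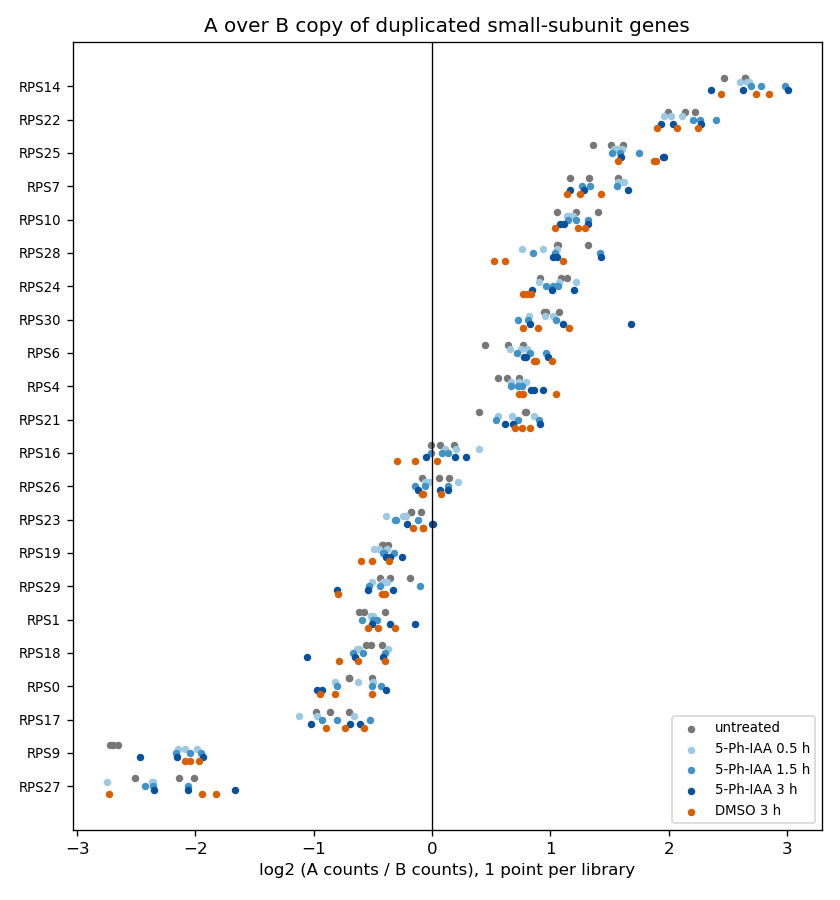
Log2 of A over B counts for duplicated genes, 1 point per library, coloured by group and ordered by the mean ratio. Points right of 0 have more A than B counts. RPS14 lies farthest right and RPS27 farthest left, and RPS9 shows the untreated libraries apart from the 12 others.

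When cells with 5-Ph-IAA were set against those with DMSO for 3 h, 0 of the 57 genes passed an adjusted p of 0.05 (edgeR quasi-likelihood test, Benjamini-Hochberg over the 6069 genes tested), while 7.94% of all genes did. The median log2 change of the 57 was -0.08, with 39 below 0 and 18 above, against a median of -0.02 over all genes. At an unadjusted p under 0.05 there were 5, of which RPS9A, RPS9B, RPS28B and RPS3 were lower and RPS30A higher, and DESeq2 called 2. The groups did not overlap for 3 genes that were lower and 1 that was higher, against 10.2% and 9.75% of all genes. The largest differences were those of the RPS9 pair, whose protein (uS4) sits by the messenger RNA entry channel and is known for its part in decoding accuracy.

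RPS9A had 446.9, 313.0 and 456.7 CPM in 5-Ph-IAA libraries at 3 h, against 587.5, 577.3 and 520.9 CPM in DMSO libraries. Every 5-Ph-IAA library was below every DMSO library, the log2 change was -0.47 ± 0.14 (SE), and the adjusted p of 0.0595 in edgeR missed the threshold. RPS9B had 1713, 1733 and 2036 CPM in 5-Ph-IAA libraries, against 2423, 2258 and 2219 CPM in DMSO libraries. The RPS9B groups did not overlap either, with a log2 change of -0.33 ± 0.11 (SE) and an adjusted p of 0.0842 in edgeR. Replicate numbers deviated together at 3 h (correlations of 0.196, 0.302 and 0.586), and with the number as a block among the 6 libraries edgeR called 2 of the 57 genes, RPS9A (-0.48, adjusted p 0.0222) and RPS9B (-0.34, adjusted p 0.0477). DESeq2 gave adjusted p of 0.0202 and 0.0315 for RPS9A and RPS9B. Without library 3 of 5-Ph-IAA, edgeR gave adjusted p of 0.0336 and 0.047. This pairing comes from the correlations and not from the labels. The highest correlation, 0.586, is that of library 3, whose 5-Ph-IAA label could not be checked.

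The other small-subunit genes differed less between 5-Ph-IAA and DMSO, and 0 of the 9 single-copy genes passed in the main fit. RPS28B, a copy of the gene for eS28 at the messenger RNA exit, had 535.2, 490.1 and 653.0 CPM in 5-Ph-IAA libraries, against 663.0, 714.7 and 731.4 CPM in DMSO libraries (log2 change -0.33, edgeR adjusted p 0.185). RPS30A, a gene for eS30, had 1391, 1291 and 1286 CPM in 5-Ph-IAA libraries, against 1189, 1149 and 996.2 CPM in DMSO libraries (log2 change 0.25, edgeR adjusted p 0.19). Neither gene overlapped between the groups and neither passed the threshold in the main fit. RPS3, whose protein uS3 lines the messenger RNA entry, had a log2 change of -0.26 ± 0.12 (SE; edgeR adjusted p 0.207). RPS31 was alike in both groups, with means of 5542 ± 486 CPM in 5-Ph-IAA libraries and 5537 ± 367 CPM in DMSO libraries (SD, n = 3 each). The large subunit gave 0 calls among its 81 genes as well, with a median log2 change of -0.12.

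After 0.5 h and 1.5 h of 5-Ph-IAA, RPS9A, which rose, was the only small-subunit gene called in the main fit, while most others lay slightly lower at 1.5 h. Of the 57, 1 was called at 0.5 h, where 6.15% of all genes were called and 3.36% were called higher, and the median log2 change was -0.01. At 1.5 h, 1 was called, against 17.6% of all genes called and 7.86% called higher. The median was then -0.16, with 53 of 57 below 0 and an all-gene median of -0.02. At 1.5 h, 16 genes were lower in all 5-Ph-IAA libraries than in any untreated library, a share of the 57 to be read against 22.2% of all genes. Examples are RPS22B, with 373.0, 433.2 and 419.8 CPM at 1.5 h, against 481.3, 608.9 and 533.9 CPM in untreated cells (log2 change -0.41, edgeR adjusted p 0.0773). RPS14B had 292.2, 301.2 and 282.6 CPM at 1.5 h, against 317.3, 360.3 and 436.4 CPM in untreated cells (log2 change -0.35, edgeR adjusted p 0.0821). Neither passed the threshold in edgeR, while DESeq2 called 4 genes at 1.5 h (RPS9A, RPS14B, RPS22A and RPS22B). In the large subunit 0 of 81 were called at 0.5 h and 5, all lower, at 1.5 h.

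RPS9A was the only one of the 57 with a call above untreated cells in any comparison. Its level over the time course was 471.8, 455.9 and 403.5 CPM in untreated cells, 729.5, 654.9 and 713.6 CPM at 0.5 h, 632.8, 691.4 and 524.4 CPM at 1.5 h, and 446.9, 313.0 and 456.7 CPM at 3 h of 5-Ph-IAA. All libraries at 0.5 h and 1.5 h were above the untreated ones, and those at 3 h overlapped them. The rise was 1.576-fold at 0.5 h (log2 0.66 ± 0.14, SE; edgeR adjusted p 0.0111) and 1.389-fold at 1.5 h (log2 0.47 ± 0.14, SE; edgeR adjusted p 0.0334). Without untreated library 3 the adjusted p at 0.5 h was 0.0679, and at 1.5 h it was 0.0578 to 0.152 when any untreated library or library 1 or 2 of 1.5 h was left out. In DMSO all libraries, at 587.5, 577.3 and 520.9 CPM, also lay above the untreated ones, but the log2 change of 0.34 ± 0.14 (SE; edgeR adjusted p 0.076) did not pass.

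The A to B balance of RPS9 differed between untreated cells and every other group, DMSO included. RPS9A made up 13.74%, 13.38% and 13.13% of the counts of the pair in untreated libraries. The share was 20.17%, 19.05% and 18.41% at 0.5 h, 20.56%, 19.5% and 18.23% at 1.5 h, and 20.69%, 15.3% and 18.32% at 3 h of 5-Ph-IAA, against 19.51%, 20.36% and 19.01% in DMSO. The lowest of the 12 treated libraries, library 2 of 5-Ph-IAA at 3 h, is the shallow library described above, and it still lay above the 3 untreated ones. Across 738 paralog pairs of the genome tested with limma, the change in log2 A over B against untreated cells was 0.62 ± 0.12 at 0.5 h (adjusted p 0.0018), 0.64 ± 0.12 at 1.5 h (adjusted p 0.000947), 0.50 ± 0.12 at 3 h of 5-Ph-IAA (adjusted p 0.0023) and 0.66 ± 0.12 in DMSO (adjusted p 0.000276; SE throughout). These 4 comparisons share the untreated libraries. With 5-Ph-IAA the ratio was -0.15 relative to DMSO at 3 h on the log2 scale (limma adjusted p 0.465). The call held in all alternatives run, including each library left out, with changes of 0.38 to 0.69 over the 4 comparisons.

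**Figure D3:**
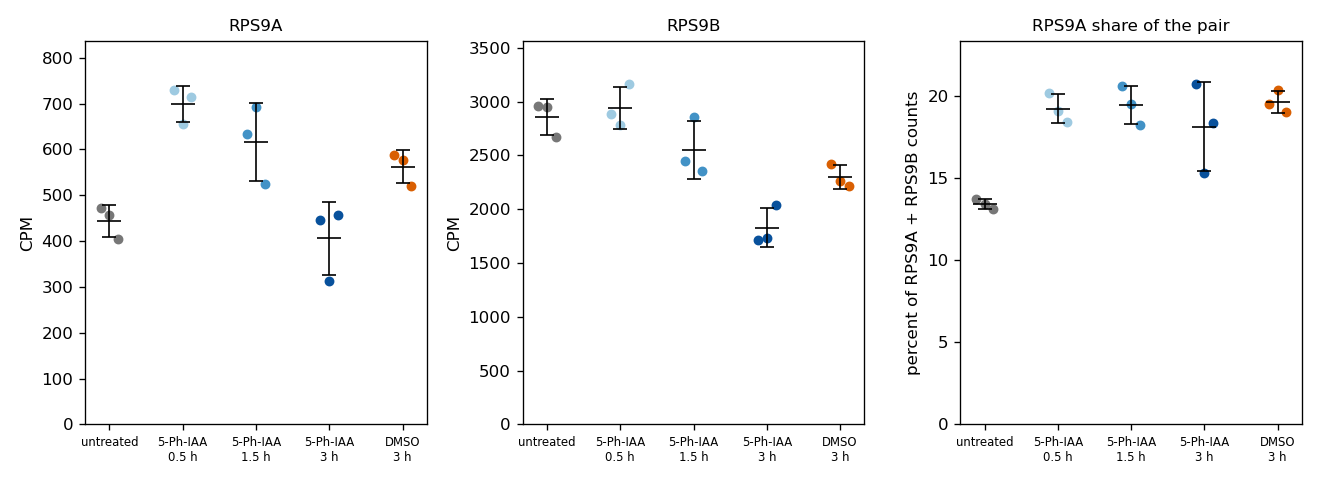
RPS9A and RPS9B in CPM and the percent of the pair's counts in RPS9A, 1 point per library, with mean and SD of 3 libraries. RPS9A makes up 13.13% to 13.74% of the pair in untreated cells and 15.3% to 20.69% in the 12 other libraries.

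RPS9A and RPS9B both carry an intron, and Rps9 protein is known to feed back on splicing in yeast; splicing was not measured in these counts. The stretches from 320 to 171 bases before the start codon are shown because only RPS9B holds an exact match to CCNTACAT there. They lie at chrXVI:404630-404779 for RPS9A and chrII:604188-604337 for RPS9B, both plus strand, R64. Capitals mark that match, which begins 219 bases before the start codon of RPS9B. CCNTACAT is 1 spelling based on the RPG and HOMOL1 boxes of ribosomal protein promoters. The RPS9A stretch holds ccatgcat, which departs from it at 1 base, so lacking this spelling is not lacking such a box. Whether either stretch acts as a box was not tested.
RPS9A upstream: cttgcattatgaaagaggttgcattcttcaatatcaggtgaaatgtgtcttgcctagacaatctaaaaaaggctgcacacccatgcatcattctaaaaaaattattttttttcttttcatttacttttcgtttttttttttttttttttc
RPS9B upstream: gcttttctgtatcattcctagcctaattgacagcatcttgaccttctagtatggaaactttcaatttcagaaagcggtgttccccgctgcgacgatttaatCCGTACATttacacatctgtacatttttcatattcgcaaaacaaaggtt
In the window from 600 to 51 bases before the start codon, on either strand, CCNTACAT occurs in 26 of the 57 genes (45.6%), in 37 of 81 large-subunit genes (45.7%) and in 381 of 5993 protein-coding genes (6.36%). Both copies hold CCNTACAT in 7 pairs, the A copy alone in 3, the B copy alone in 5 and neither in 9. Where 1 copy alone holds it, that copy was the higher in all 15 libraries for RPS10, RPS22, RPS0, RPS9 and RPS27, the other copy for RPS7 and RPS19, and RPS23 had a varying order. The spelling was settled after several were tried, so this tally is a description and not a test. Among the 9 pairs with it in neither copy, A was higher in all 15 libraries in 4 and B in 3, and the order varied in 2. RPS22B is known to have a further intron before its start codon, so its promoter may lie outside this window.

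Apart from RPS9, few pairs changed their balance. In 5-Ph-IAA against DMSO at 3 h, 0 of 24 pairs passed in limma, where 13.8% of the 738 pairs did, and 2 had an unadjusted p under 0.05. RPS28A made up 67.52%, 72.94% and 66.96% of its pair in 5-Ph-IAA libraries, against 68.25%, 60.56% and 58.96% in DMSO libraries. The RPS28 groups overlapped, with a change in log2 A over B of 0.42 ± 0.16 (SE, limma adjusted p 0.102). Without DMSO library 1 the RPS28 change was 0.60 and passed (limma adjusted p 0.0316). RPS16 followed with 0.28 (limma adjusted p 0.129), which passed at 0.0471 with the replicate number as a block among the libraries at 3 h. The median absolute change of the 24 ratios was 0.06, against 0.23 over all 738 pairs. The 738 pairs include genes with far fewer counts, and some small-subunit copies share long stretches, so these medians are not like for like.

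Against untreated cells, 1 of 24 pairs passed at 0.5 h (10.6% of all pairs) and 1 at 1.5 h (20.2%), RPS9 both times. At 3 h, 2 of 24 passed in 5-Ph-IAA (40.2% of all pairs) and 2 in DMSO (38.1%), each time RPS9 and 1 other. The 5-Ph-IAA count was 5 without 5-Ph-IAA library 3, and 1 without 5-Ph-IAA library 1 or 2 or untreated library 2. The DMSO count was 1 without DMSO library 2 or untreated library 2 or 3. RPS25A made up 79.44%, 79.6% and 75.2% of its pair after 3 h of 5-Ph-IAA, against 74.05%, 71.97% and 75.4% in untreated cells. The RPS25 groups overlapped through 1 library on each side, and the log2 ratio was higher by 0.34 ± 0.12 (SE, limma adjusted p 0.0302). RPS6A made up 64.78%, 66.82% and 64.49% of its pair in DMSO, against 62.98%, 60.98% and 57.67% in untreated cells (log2 ratio 0.30 ± 0.10, SE; limma adjusted p 0.0298). The RPS6 groups did not overlap, but its copies share most of their sequence. The RPS25 and RPS6 calls were lost in a fit of the 6 libraries of each comparison alone (limma adjusted p 0.0723 and 0.0576), that of RPS25 also without library 1 or 2 of either group (0.062 to 0.124), and that of RPS6 without DMSO library 1 or 2 or untreated library 2 or 3 (0.0517 to 0.161). Median absolute changes of the 24 ratios against untreated cells were 0.06 to 0.10, where those of all pairs were 0.20 to 0.41. The limit given above on comparing such medians holds here too.

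At 3 h most small-subunit genes were below untreated cells in 5-Ph-IAA and in DMSO. In 5-Ph-IAA, 49 of 57 fell and 0 rose, where 39.3% of all genes were called, 19.7% lower and 19.6% higher. In DMSO 43 fell and 0 rose, where 36.1% of all genes were called, 18.5% lower and 17.6% higher. In 50 genes every 5-Ph-IAA library was below every untreated one (23.8% of all genes), and in 48 every DMSO library was (23.5%). The median log2 change was -0.56 in 5-Ph-IAA and -0.48 in DMSO, against 0.01 over all genes in both. The 2 comparisons share the untreated libraries. Scaling by total counts in place of TMM moved the median of all genes to 0.15 and 0.21, gave medians of -0.42 and -0.28 for the 57, and left 39 calls in 5-Ph-IAA, all lower, and 20 in DMSO, 19 lower and 1 higher. Without untreated library 3, the calls numbered 35 in 5-Ph-IAA and 25 in DMSO, and without library 2 of 5-Ph-IAA there were 39. The large subunit had 63 of 81 lower in 5-Ph-IAA and 48 lower with 1 higher in DMSO. What DMSO, handling and time in culture each contributed cannot be told apart.

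**Figure D4:**
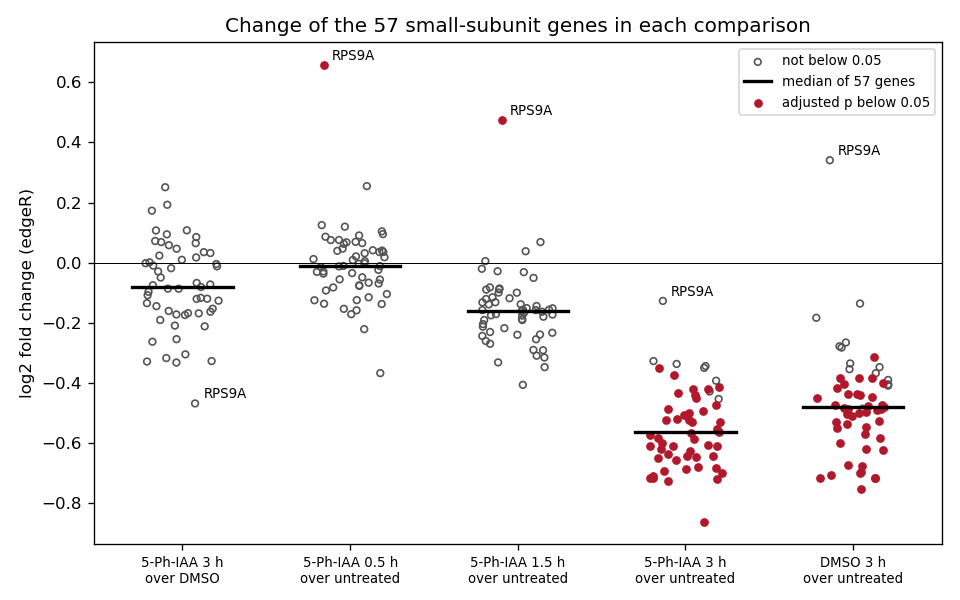
Log2 fold changes of the 57 genes in the 5 comparisons, filled where the edgeR adjusted p is below 0.05, with the median as a bar. The medians are -0.08, -0.01, -0.16, -0.56 and -0.48 from left to right, and RPS9A lies highest in each comparison with untreated cells.

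RPS22A, RPS18A and RPS16B had some of the smallest adjusted p among the genes that fell after 3 h of 5-Ph-IAA. RPS22A, a gene for uS8, had 1513, 1403 and 1357 CPM, against 2248, 2427 and 2357 CPM in untreated cells (log2 change -0.72 ± 0.10, SE; edgeR adjusted p 4.19e-05). RPS18A, a gene for the head protein uS13, had 1681, 1614 and 1700 CPM, against 2518, 2558 and 2628 CPM in untreated cells (log2 change -0.63, edgeR adjusted p 9.15e-05). RPS16B, a gene for uS9, changed by -0.59 on the log2 scale, with an edgeR adjusted p of 0.000185. In DMSO the smallest adjusted p belonged to RPS10A, RPS22A, RPS18A and RPS30A. RPS10A, for eS10 in the head near the messenger RNA entry, had 1770, 1550 and 1557 CPM in DMSO, against 2509, 3053 and 2648 CPM in untreated cells (log2 change -0.75 ± 0.12, SE; edgeR adjusted p 0.000127). In all these genes the libraries of DMSO and of 5-Ph-IAA at 3 h lay below the untreated ones.

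The genes that were not called lower at 3 h were partly the same in both treatments. In 5-Ph-IAA they were RPS1A, RPS7A, RPS7B, RPS9A, RPS13, RPS17B, RPS18B and RPS27A. In DMSO they were 14, of which RPS1A, RPS7A, RPS7B, RPS9A, RPS13 and RPS17B are in the list for 5-Ph-IAA, and RPS6A, RPS14A, RPS15, RPS19B, RPS23A, RPS24B, RPS26B and RPS28B are not. RPS17B had the largest change that did not pass, -0.45 ± 0.19 in 5-Ph-IAA (SE; edgeR adjusted p 0.0652) and -0.49 ± 0.19 in DMSO (SE; edgeR adjusted p 0.0525). With the replicate number as a block both RPS17B changes passed (-0.49 and -0.50, edgeR adjusted p 0.0213 and 0.0196), and without 5-Ph-IAA library 1 the 5-Ph-IAA change was -0.73 (edgeR adjusted p 0.00284). The DMSO change of RPS17B also passed with DESeq2, with robust estimation, with only the compared groups, without any single 5-Ph-IAA library at 3 h and without DMSO library 1 (adjusted p 0.0156 to 0.0463). RPS27A, at -0.43 in 5-Ph-IAA (edgeR adjusted p 0.112), passed without 5-Ph-IAA library 2 (-0.59, edgeR adjusted p 0.0395) and without DMSO library 3 (edgeR adjusted p 0.046), which enters only the shared estimate of spread. Membership of these lists is therefore uncertain near the threshold. Whether 5-Ph-IAA and DMSO differ is a question for their direct comparison above and not for these lists. There 0 of the 57 passed in the main fit, and RPS9A and RPS9B passed in some alternatives. Without 5-Ph-IAA library 1, RPS9A and RPS9B did not pass but at least 1 other of the 57 did. With 3 libraries in each group, 0 calls do not show that the treatments were alike.

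Most single-copy genes fell at 3 h as well, 8 of 9 in 5-Ph-IAA and 7 of 9 in DMSO. RPS2, whose protein uS5 forms part of the messenger RNA entry, had the largest change of all 57 after 3 h of 5-Ph-IAA, with 891.6, 977.5 and 1150 CPM, against 1552, 1744 and 2185 CPM in untreated cells (log2 change -0.86 ± 0.17, SE; edgeR adjusted p 0.000594). In DMSO it had 1311, 860.8 and 1165 CPM (log2 change -0.72 ± 0.16, SE; edgeR adjusted p 0.00296). RPS2 was below every untreated library in both groups.

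RPS15, for the head protein uS19, fell by 0.72 on the log2 scale in 5-Ph-IAA (edgeR adjusted p 0.00309), and in DMSO its change of -0.39 did not pass (edgeR adjusted p 0.0832). RPS3, RPS12 (eS12), RPS20 (uS10), RPS31 and ASC1, the RACK1 homologue that serves as a signalling scaffold on the head, were called lower in both. Their log2 changes were -0.49 to -0.68 in 5-Ph-IAA and -0.38 to -0.53 in DMSO. The RPS31 calls held in all alternatives run. The DMSO calls of RPS3, RPS12, RPS20 and ASC1 were lost with total-count scaling and without untreated library 3, and each also without at least 1 of untreated library 2 and DMSO libraries 2 and 3 (edgeR adjusted p 0.0517 to 0.191). Those of RPS3, RPS20 and ASC1 were lost with only the compared groups too (edgeR adjusted p 0.0525 to 0.0619). In 5-Ph-IAA, RPS12 lost its call without 5-Ph-IAA library 3 (edgeR adjusted p 0.0631) or untreated library 3 (edgeR adjusted p 0.101). RPS13, for uS15, had 1693, 1858 and 2741 CPM in 5-Ph-IAA and 2269, 1772 and 2993 CPM in DMSO, against 2438, 3004 and 2543 CPM in untreated cells. Both groups of RPS13 overlapped the untreated one, with log2 changes of -0.34 (edgeR adjusted p 0.219) and -0.18 (edgeR adjusted p 0.541), and the DMSO value was 0.01 with total-count scaling. Without library 3 of 5-Ph-IAA, the highest of its group, the 5-Ph-IAA change of RPS13 was -0.58 and passed (edgeR adjusted p 0.0368).

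**Figure D5:**
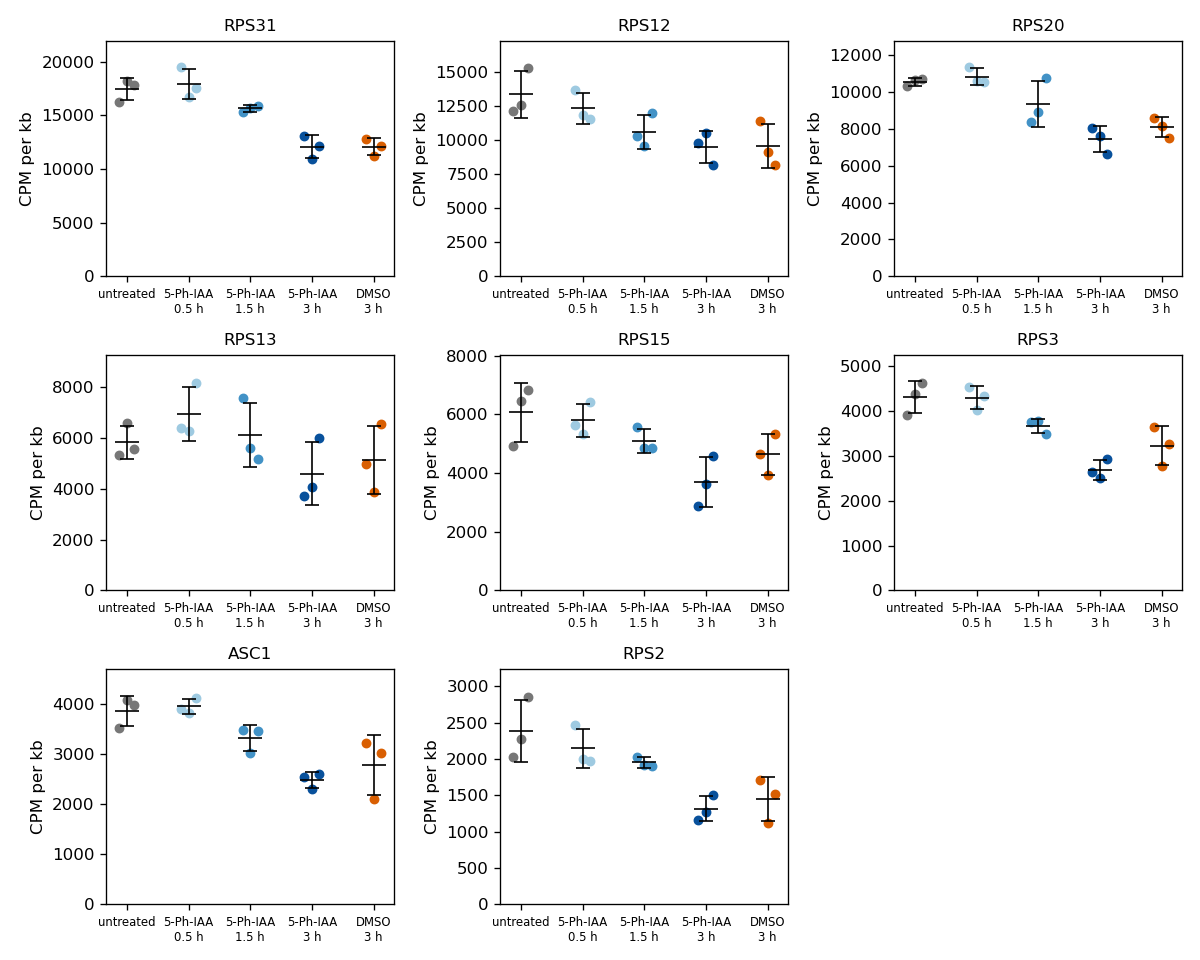
CPM per kb of coding length for 8 single-copy genes, 1 point per library, with mean and SD of 3 libraries. RPS31 is the highest of the 8 and RPS2 the lowest, and in RPS13 the libraries at 3 h overlap the untreated ones.

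Late maturation factors prepare the 40S particle for translation, and most of their genes were also lower at 3 h. In all, 10 of 11 fell in 5-Ph-IAA, where 19.7% of all genes did, and 10 in DMSO, where 18.5% did, with median log2 changes of -1.19 and -0.94. At 0.5 h 2 fell, where 2.78% of all genes did, and at 1.5 h 8 fell, where 9.74% did, while 0 passed between 5-Ph-IAA and DMSO, with 2 at an unadjusted p under 0.05. PNO1, an assembly factor of the 40S platform, averaged 133.0 ± 8.03 CPM at 0.5 h, against 188.6 ± 23.5 CPM in untreated cells (SD, n = 3 each; log2 change -0.50, edgeR adjusted p 0.0224). After 3 h of 5-Ph-IAA it averaged 71.93 ± 7.56 CPM (SD, n = 3; log2 change -1.40, edgeR adjusted p 7.99e-07). DIM1, a ribosomal RNA methyltransferase, was the other call at 0.5 h (log2 change -0.47, edgeR adjusted p 0.0456).

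The dedicated chaperones of single small-subunit proteins were lower at 3 h too, 4 of 4 in each treatment, where 19.7% of all genes fell in 5-Ph-IAA and 18.5% in DMSO. After 3 h of 5-Ph-IAA, YAR1, which escorts Rps3, averaged 133.2 ± 9.69 CPM, against 217.7 ± 7.17 CPM in untreated cells (SD, n = 3 each; log2 change -0.71, edgeR adjusted p 2.9e-05). TSR4, which escorts Rps2, changed by -0.94 (edgeR adjusted p 0.000134), FAP7, which acts on Rps14, by -0.61 (edgeR adjusted p 0.000296) and TSR2, which escorts Rps26, by -1.16 (edgeR adjusted p 0.000561), all on the log2 scale. Between 5-Ph-IAA and DMSO 0 of 4 passed, and at 0.5 h 0 passed while 2 had an unadjusted p under 0.05. At 1.5 h, 2 of 4 were called lower, where 9.74% of all genes were.

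Of 10 regulators of ribosomal protein and ribosome biogenesis genes, 0 passed between 5-Ph-IAA and DMSO and 0 at 0.5 h, with 1 at an unadjusted p under 0.05 in each comparison. After 3 h of 5-Ph-IAA, 2 fell and 2 rose, which is close to the shares over all genes (19.7% lower and 19.6% higher), so the counts do not set the regulators apart. TOD6, a repressor of ribosome biogenesis genes, fell to 95.24 ± 7.83 CPM, against 177.7 ± 13.0 CPM in untreated cells, and the kinase gene SCH9 fell to 67.4 ± 7.48 CPM, against 113.0 ± 19.3 CPM (SD, n = 3 each; edgeR adjusted p 3.3e-05 and 0.000217). DOT6, a paralog of TOD6, rose to 144.4 ± 13.3 CPM, against 84.92 ± 4.41 CPM in untreated cells, and STB3 rose by 0.53 on the log2 scale (edgeR adjusted p 0.000278 and 0.00342). The same 4 were called in DMSO in the same directions, with RAP1 lower in addition.

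Among the other ubiquitin genes, UBI4, the stress-induced polyubiquitin gene, rose in comparisons in which RPS31 did not pass; the difference between the genes was not tested. UBI4 averaged 507.4 ± 63.3 CPM after 3 h of 5-Ph-IAA, against 323.6 ± 54.3 CPM in DMSO (SD, n = 3 each; log2 change 0.65, edgeR adjusted p 0.00614), where RPS31 had a log2 change of 0.0013 (edgeR adjusted p 0.997). At 0.5 h UBI4 averaged 492.9 ± 23.0 CPM, against 262.4 ± 26.9 CPM in untreated cells (SD, n = 3 each; log2 change 0.91, edgeR adjusted p 0.000445). RPS31 at 0.5 h averaged 8223 ± 650 CPM, against 7996 ± 473 CPM in untreated cells (SD, n = 3 each). RPL40A and RPL40B, which encode ubiquitin fused to a large-subunit protein, passed neither between 5-Ph-IAA and DMSO nor at 0.5 h.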

How the data were processed

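The deposited table gives counts of reads per gene that the authors made, 1 column per library. Build R64 and the tools STAR 2.7.0, DESeq2 1.34.0 and FastQC 0.11.5 are named in the submitters' processing notes. How reads were counted per gene, with or without strand, and what happened to reads with several matches is not given in the sources used here. Locus tags tied 6047 of 7127 rows to the annotation, and symbols or synonyms another 44.

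Counts were tested with edgeR 4.0.16 (R 4.3.3): TMM, filterByExpr, 1 mean per group over all 15 libraries, quasi-likelihood F test, two-sided, Benjamini-Hochberg adjustment at 0.05 over 6069 genes, biological coefficient of variation 17%. Ratios of copies, log2 of A over B with 1 count added, were tested with limma 3.58.1 (trend) over the 738 of 802 paralog pairs with both members tested. Pairs were reciprocal best hits of translated coding sequences covering at least 50% of both proteins (BLAST 2.17.0), and A is the copy named A. Fits were also run on simulated data with known changes. Genes without a planted change had equal means in all groups there, unlike these data at 3 h, so those runs do not check that setting. Figures used Python 3.11.15 and matplotlib 3.10.9.

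The members, lists, tests and rule for naming genes were chosen with earlier results of these data known. Named are all single-copy genes, per comparison up to 4 called members in each direction with the smallest adjusted p and 2 uncalled ones with the largest change, the pairs with the smallest adjusted p or most extreme ratios, pairs with identical proteins, and up to 3 members of other lists. RPS28B, RPS30A and genes named in counts of uncalled members were added after seeing values. Some genes counted here are not reported by name. The motif was settled after trying several spellings.

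Same-numbered libraries deviated from their group means with correlations of 0.196, 0.302 and 0.586 at 3 h between 5-Ph-IAA and DMSO, so an added fit treats these as pairs; the labels do not say what a number marks. In the other comparisons every set of 3 held a correlation under 0.1. Single values there ran from -0.333 (library 2, DMSO against untreated) to 0.23 (library 1, 5-Ph-IAA at 3 h against untreated), which is above the 0.196. Alternatives were DESeq2 1.42.0, robust estimation, RLE factors, scaling by total counts, a floor of 10 CPM on the mean, every gene with a count, fits of the 2 groups compared, a replicate block, leaving out each library and, for ratios, an added count of 5, pairs of at least 10 CPM and an edgeR test of copy by group.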

Additional observations from a re-analysis of the deposited data

How the results depend on the processing

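For 5-Ph-IAA against DMSO, both for 3 h, the 0 calls among small-subunit genes became 2 with DESeq2, 1 with total counts, 1 with a mean of at least 10 CPM and 2 with the replicate block among the 3 h libraries, and the 0 ratio calls became 1 with that block. At 1.5 h the single gene call became 4 with DESeq2 and 2 with only the compared groups. In DMSO against untreated cells, the 43 calls became 20 with total counts. With only the compared groups, ratio calls at 3 h fell to 1 in 5-Ph-IAA and 1 in DMSO, each against untreated cells. The only reversal among values followed was RPS13 in DMSO against untreated cells, 0.0106 with total counts in place of -0.18. The causes were not tested.

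When each library was left out in turn, gene calls ranged from 0 to 2 between 5-Ph-IAA and DMSO, 0 to 1 at 0.5 h, 0 to 1 at 1.5 h, 35 to 51 at 3 h of 5-Ph-IAA and 25 to 47 in DMSO, the last 4 against untreated cells. Ratio calls ranged from 0 to 1, 1 to 1, 1 to 1, 1 to 5 and 1 to 3 in the same order. Leaving out untreated library 3 gave the low ends of 35 and 25, and leaving out 5-Ph-IAA 3 h library 3 gave the 5.

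With the replicate number as a block over all 15 libraries, gene calls were 0, 1, 1, 52 and 46 and ratio calls 0, 1, 1, 2 and 3 in that order. Over all alternatives, the values followed for single genes stayed on their side of the threshold 812 times, gained a call 35 times and lost it 28 times, and those for ratios 303, 9 and 10 times. Among values called in the main fit, the call was kept 547 times and lost 28 times for genes, and 110 and 10 times for ratios. Many of these refits left out a library outside the groups compared, which could move a call only a little, so the tallies do not measure how firm the calls are. Depth limits little here, since the lowest count of a small-subunit gene in a library was 457; the spread between libraries sets the precision.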
